A study of Mus musculus with 4 samples.

Results

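The proteasome genes of mouse follicular B (FOB) cells were taken as the genes of the deposited count table whose symbol starts with Psma, Psmb, Psmc, Psmd, Psme, Psmf or Psmg and ends in a number, with or without the letters ip, leaving out Psmb8 and Psmb9. This rule found 47 of the 55401 genes in the table and used no measured value. The set holds the alpha and beta rings of the core particle, the base and lid of the regulatory particle, their assembly chaperones, the activators and 1 inhibitor. It also holds Psmc3ip, which the rule takes by its name alone, since that gene encodes a partner of meiotic recombinases and not a subunit.

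Poly(A) RNA was sequenced from FACS-sorted B220+CD93-CD23highCD21low FOB cells of C57BL/6 mice aged 7 weeks. There were 2 WT libraries (Hnrnpf fl/fl, with floxed Hnrnpf alleles and no Cre) and 2 Hnrnpf bKO libraries (Hnrnpf fl/fl with a Cre that acts in the B lineage and removes exon 4 of Hnrnpf). The groups therefore also differ in carrying the Cre, and the effects of the Cre allele and of the loss of Hnrnpf cannot be told apart. The paper calls this a single experiment, and whether a library came from 1 mouse or from pooled mice is not given in the sources used here, so the p-values measure only the spread between these libraries. The question asked here was whether the transcripts of the protein degradation machinery were at another level in B cells without hnRNP F, an RNA-binding protein that acts on splicing through G-tracts.

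The proteasome degrades proteins that carry ubiquitin chains. The core particle is a barrel of stacked alpha and beta rings with the proteolytic sites inside, and the regulatory particle caps it, binds the ubiquitin chain, removes it and unfolds the substrate with a ring of ATPases. Lymphocytes also use immunoproteasomes, in which Psmb8, Psmb9 and Psmb10 take the place of Psmb5, Psmb6 and Psmb7 and favour peptides that suit MHC class I. When proteasome capacity is short, the transcription factor encoded by Nfe2l1 is known to raise subunit genes together.

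The libraries held 15698567 to 18908963 counts. The targeted gene, Hnrnpf, was counted 5780 and 6634 times in WT cells against 1167 and 1194 times in Hnrnpf bKO cells, a log2 fold change of -2.32 ± 0.06 (SE). Of the B cell markers, 2 of 5 (Ms4a1 and Pax5) were called lower in Hnrnpf bKO cells. Cd22 (-0.12 on the log2 scale), Cd79a (0.10) and Cd79b (0.11) did not pass the test (adjusted p = 0.13, 0.22 and 0.23). The summed level of the 5 was 8319 and 8297 CPM (counts scaled to a common library size) in WT against 8038 and 8096 in Hnrnpf bKO cells. Of the follicular markers, 3 of 4 were called higher and 1, Cxcr5, was not called (-0.10 on the log2 scale, adjusted p = 0.26). All 4 together summed to 5542 and 5737 CPM against 6689 and 6671. Of the marginal zone markers, 3 of 4 were called lower and 1, Cd1d1, higher (0.34 on the log2 scale, adjusted p = 0.016). These 4 summed to 1499 and 1299 CPM against 1083 and 1091, most of it from Cr2. Cr2 encodes CD21, and Fcer2a, a follicular marker here, encodes CD23, and the cells were sorted on both proteins. The follicular and marginal zone sums therefore cannot be read as cell composition apart from the sort gate. T cell markers summed to 16.8 to 31.0 CPM and erythroid markers to 2.23 to 4.34 CPM over the 4 libraries. Myeloid markers summed to 11.3 and 17.5 CPM in WT and to 21.7 and 32.7 CPM in Hnrnpf bKO cells, with 2 of 5 (S100a8 and S100a9) higher. No marker of these lists was at 0 in all libraries of a group.

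No proteasome gene passed the test between genotypes. Counts were compared with edgeR's quasi-likelihood test and Benjamini-Hochberg adjustment over 14123 genes, and a call needed an adjusted p of 0.05 or less. Of the 45 members that passed the filter on low counts, 0 were called higher and 0 lower, where 4.15% of all tested genes were called higher and 2.83% lower. With a fold change of at least 2 as well, 0 members were called against 0.899% of all genes. The smallest adjusted p of a member was 0.22. An unadjusted p under 0.05 was reached by 1 member, beside 1548 genes higher and 1314 lower of the 14123. DESeq2 also called 0 members, with 0 at an unadjusted p under 0.05. Of 12209 genes it called 370 higher and 250 lower, with 890 and 746 at that unadjusted p. In bulk RNA, a change in the number of cells of a type cannot be told apart from a change in RNA per cell.

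The members' differences were also small. Their median log2 fold change was -0.0038, beside -0.0023 for all tested genes, with 22 members above 0 and 23 below. The median size of the log2 fold change, sign left aside, was 0.063 for the members and 0.14 for all tested genes. Among the 4955 genes with a mean of 500 to 3000 counts, where 38 members lie, it was 0.084, against 0.058 for those 38 members, and 8.31% of these genes were called. The median standard error of a member was 0.073. The 95% interval of the difference stayed within 1.5-fold either way for 43 members and within 1.25-fold for 38. The exceptions to the 1.5-fold bound were Psmg1 and Psmc3ip, the latter with as few as 48 to 77 counts in a library. Both Hnrnpf bKO libraries lay above both WT libraries for 12 of the 45 members and below them for 8, where 25.3% of all tested genes were higher and 24.8% lower in this way.

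**Figure D1:**
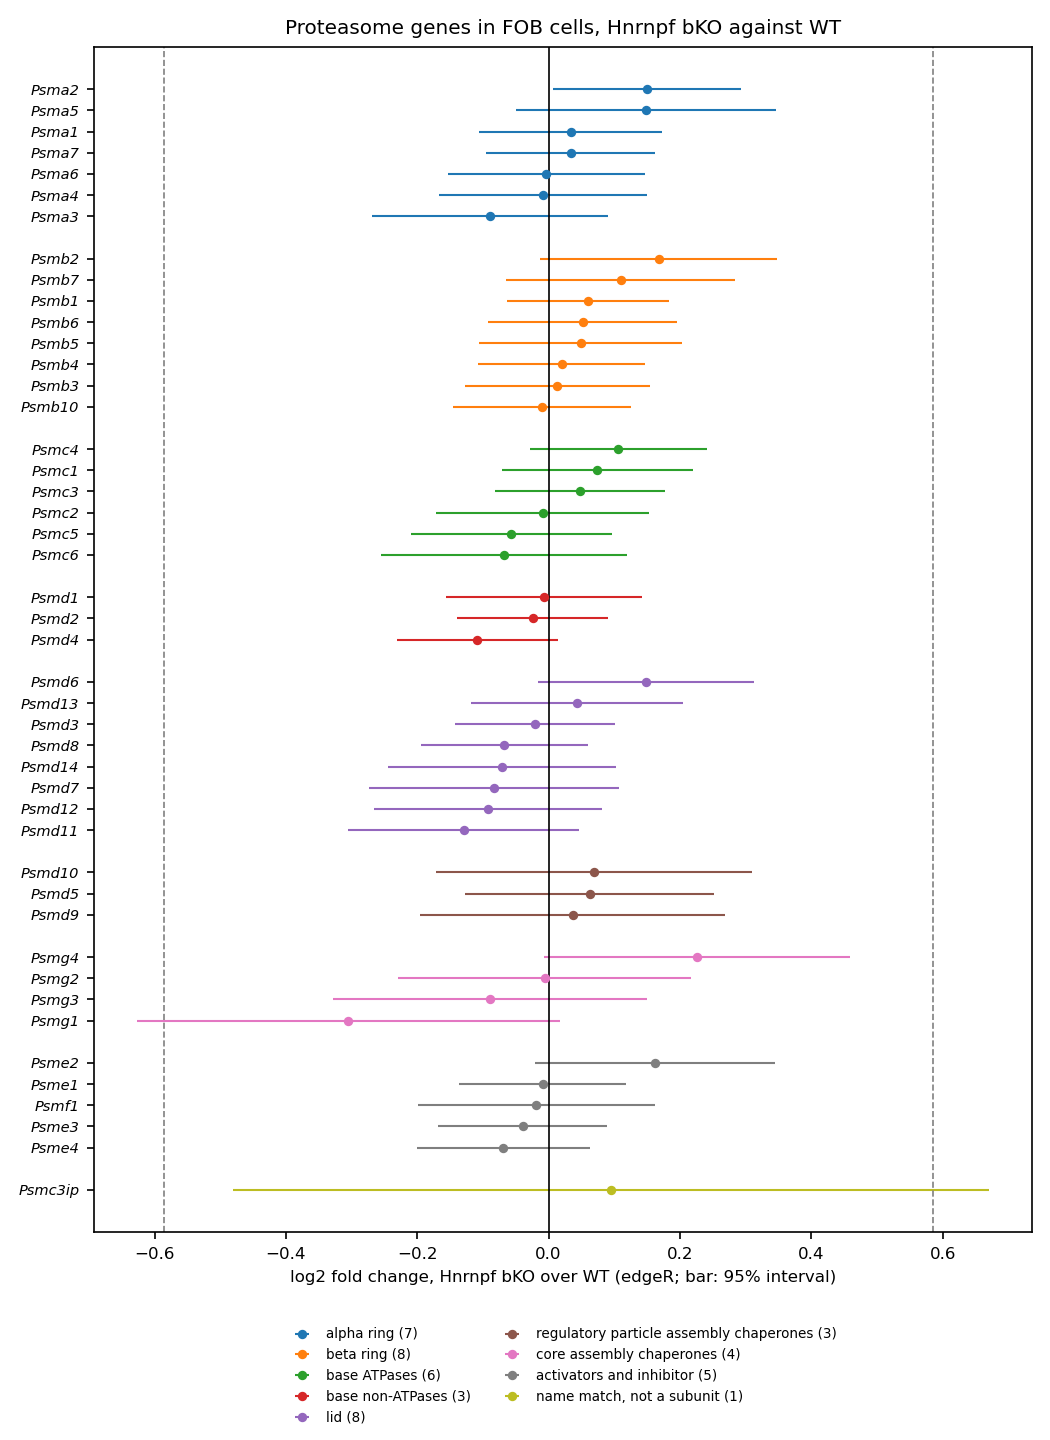
Log2 fold change of each tested proteasome gene, Hnrnpf bKO over WT (x axis, log2 units), by role in colour; points are edgeR estimates from 2 against 2 libraries, bars their 95% intervals, and dashed lines mark 1.5-fold. Of 45 intervals, 44 include 0, and the exception is Psma2, from 0.0073 to 0.29.

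The 7 tested alpha ring genes, which form the gated outer rings of the core, had a median log2 fold change of 0.03. Psma2 stood at 67.8 and 67.4 CPM in WT and at 74.3 and 75.8 CPM in Hnrnpf bKO cells. Both Hnrnpf bKO libraries were above both WT libraries, and the log2 fold change was 0.15 ± 0.07 (SE, adjusted p = 0.22). Psma7 had 92.9 and 93.2 CPM in WT and 96.3 and 94.2 CPM in Hnrnpf bKO cells, so the groups lay next to each other (0.03 ± 0.06 on the log2 scale). Psma3 had the lowest difference of this ring, -0.09 ± 0.08, with 41.3 and 42.1 CPM in WT and 41.0 and 37.5 CPM in Hnrnpf bKO cells. Psma8, an alpha subunit known from the testis, had 0 counts in each library. For 0 counts, the upper 95% limit by counting error is about 3 counts of each total.

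Of the 8 tested beta ring genes, 7 had a log2 fold change above 0, with a median of 0.05. The 3 genes of the constitutive proteolytic sites did not pass the test. Psmb5, the chymotrypsin-like site, had 57.6 and 57.1 CPM in WT and 59.6 and 59.1 CPM in Hnrnpf bKO cells (0.05 ± 0.07 on the log2 scale). Psmb6, the caspase-like site, had 72.7 and 74.3 CPM against 78.3 and 74.1 CPM (0.05 ± 0.07). Psmb7, the trypsin-like site, had 36.6 and 37.4 CPM against 39.5 and 40.4 CPM (0.11 ± 0.08, adjusted p = 0.50), and both Hnrnpf bKO libraries were above both WT libraries. The exons of Psmb7 lie opposite those of Nek6 over 405 bases, and reads from both strands there cannot be told apart without a strand setting. The same holds for the 10 members in all whose exons lie opposite another gene. They include Psmc3ip, which lies opposite Mlx over 385 bases, where Mlx had 652 to 765 counts in a library.

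The immunoproteasome subunits did not move with the genotype beyond their spread. Psmb10 had 110 and 119 CPM in WT and 110 and 118 CPM in Hnrnpf bKO cells, and the libraries of both genotypes covered the same range. Psmb8 and Psmb9, which the rule leaves out, had log2 fold changes of -0.04 ± 0.06 and 0.04 ± 0.06. Exons of Psmb9 lie opposite those of Tap1 over 212 bases, and Tap1 was itself called lower (-0.19 ± 0.05, adjusted p = 0.048). Psmb2, a structural beta subunit, had the highest value of this ring, 0.17 ± 0.08 (adjusted p = 0.28), from 47.9 and 46.1 CPM in WT to 56.1 and 49.6 CPM in Hnrnpf bKO cells. Psmb11, which belongs to the thymic form, was counted once in 1 WT library and not in the other three.

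In the regulatory particle, the 6 ATPase genes of the base had a median log2 fold change of 0.02, and they ranged from -0.07 ± 0.09 for Psmc6 to 0.11 ± 0.06 for Psmc4. The 3 other base genes were all below 0, with a median of -0.02. Among them Psmd4, a receptor for ubiquitin chains, had 116 and 112 CPM in WT and 105 and 107 CPM in Hnrnpf bKO cells. Both Hnrnpf bKO libraries were below both WT libraries, but the difference of -0.11 ± 0.06 did not pass the test (adjusted p = 0.31). The scaffold genes Psmd1 and Psmd2 stood at -0.01 ± 0.07 and -0.02 ± 0.05.

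The 8 lid genes had the lowest median of the roles with more than 4 tested genes, -0.07, with 6 of them below 0 and 0 called. Psmd14, the deubiquitinase that removes the chain, had 41.9 and 44.4 CPM in WT and 40.5 and 41.7 CPM in Hnrnpf bKO cells (-0.07 ± 0.08). Psmd11, which clamps the core and the regulatory particle together, had the lowest value, -0.13 ± 0.08 (adjusted p = 0.41). Psmd6 had the highest, 0.15 ± 0.08 (adjusted p = 0.30). Psmd13 stood at 59.7 and 63.6 CPM in WT and at 66.0 and 61.2 CPM in Hnrnpf bKO cells, and the groups overlapped (0.04 ± 0.07).

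The core assembly chaperones held both the lowest and the highest log2 fold change of all members. Psmg1, which helps to build the alpha ring, had 13.5 and 15.8 CPM in WT and 13.2 and 10.6 CPM in Hnrnpf bKO cells. Its log2 fold change, -0.31 ± 0.15, was the lowest of all members and did not pass the test (adjusted p = 0.27, interval -0.63 to 0.02). The libraries were close, with 13.5 CPM the lower WT value and 13.2 CPM the higher Hnrnpf bKO value. Psmg4, another alpha ring chaperone, had the highest value of all members, 0.23 ± 0.11 (adjusted p = 0.26), from 18.5 and 21.3 CPM to 23.3 and 23.4 CPM. Psmg2 and Psmg3 stood at -0.01 ± 0.10 and -0.09 ± 0.11. The regulatory particle chaperones Psmd5, Psmd9 and Psmd10 lay between 0.04 and 0.07, with standard errors of 0.09 to 0.11.

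The activators open the core for entry without ubiquitin. Psme1, a subunit of the interferon-inducible cap, had 151 and 164 CPM in WT and 161 and 152 CPM in Hnrnpf bKO cells (-0.01 ± 0.06). Its partner Psme2 had 41.3 and 39.7 CPM in WT and 47.8 and 42.9 CPM in Hnrnpf bKO cells, so the groups did not overlap, but 0.16 ± 0.08 did not pass the test (adjusted p = 0.31). Psme3, the nuclear activator, and Psme4, the activator known from sperm and DNA repair, stood at -0.04 ± 0.06 and -0.07 ± 0.06. The inhibitor-like Psmf1 stood at -0.02 ± 0.08.

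The count of Psme2 depends on how reads that match both it and a near-identical copy were handled. The rule for reads that map to more than 1 place is not given in the sources used here. Psme2b on chromosome 11 (GRCm38 chr11:48945354-48946190, minus strand) has 1 exon, whereas Psme2 on chromosome 14 (chr14:55587441-55591113, minus strand) is spliced from 11 exons in its principal transcript. Their coding sequences, both 717 bases in GENCODE M21, differ at 5 bases with 0 gaps, and the longest identical run is 311 bases against a read length of 150. The 60 bases that hold 3 of these differences, given in capitals, show how little separates the reads:
Psme2: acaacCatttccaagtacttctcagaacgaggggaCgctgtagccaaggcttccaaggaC
Psme2b: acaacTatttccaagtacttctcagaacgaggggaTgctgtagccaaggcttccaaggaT

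The deposited counts gave 70.3% of the reads counted for both genes to Psme2b, which had 94.6 and 99.7 CPM in WT and 105 and 106 CPM in Hnrnpf bKO cells. When the counts of both genes were summed, the level was 136 and 139 CPM in WT and 153 and 148 CPM in Hnrnpf bKO cells. Reads left out of both counts, if any, are not part of this sum. The groups stayed apart, and the log2 fold change of 0.13 ± 0.05 did not pass the test (adjusted p = 0.20).

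Other members also have near-identical copies that were counted as genes of their own, and how many of a copy's reads came from the member was not tested. For 15 members, another gene matched at least 50% of the coding sequence at 90% identity or more, and for 5 of these (Psma3, Psma4, Psma5, Psmd11 and Psme2) a copy was given over 5% of the reads counted for both. Gm13835 on chromosome 6 was identical to 86.5% of the Psma3 coding sequence and was given 35.0% of the reads counted for both. A730017L22Rik on chromosome 2, 97.9% identical to the whole Psmd11 coding sequence, was singled out here after its values were seen. Its counts were 161 and 206 for WT against 270 and 243 for Hnrnpf bKO cells, and it rose by 0.57 ± 0.15 on the log2 scale (adjusted p = 0.039). That call was lost with DESeq2 (adjusted p = 0.14) and with edgeR without WT replicate 1 (0.10) or Hnrnpf bKO replicate 1 (0.28). For Psmd11 itself the counts were 1118 and 1133 against 934 and 1026. Summed over both, the counts were 1279 and 1339 against 1204 and 1269, and the difference moved from -0.13 to -0.01 ± 0.08.

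Transcript levels within the complex were then compared per length. FPKM were divided by the authors by all exonic bases of a gene. In FPKM, the 47 members were led by Psme1 with 71.6, Psmb10 with 67.5 and Psmb5 with 64.0 (means of 2 WT libraries). Psmb8, which the rule leaves out, stood above them with 88.85 FPKM. The exonic size was 1.0 to 3.36 times the length of the principal GENCODE M21 transcript, with a median of 1.64, so that the order depended on the length used. Per kilobase of that transcript, Psme1 was still first with 142 ± 8.55 (SD, n = 2), followed by Psmb3 with 103 ± 3.24 and Psma7 with 102 ± 0.711, which did not differ beyond their spread. Psma7 moved from rank 18 to rank 3 and Psmb5 from rank 3 to rank 13.

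**Figure D2:**
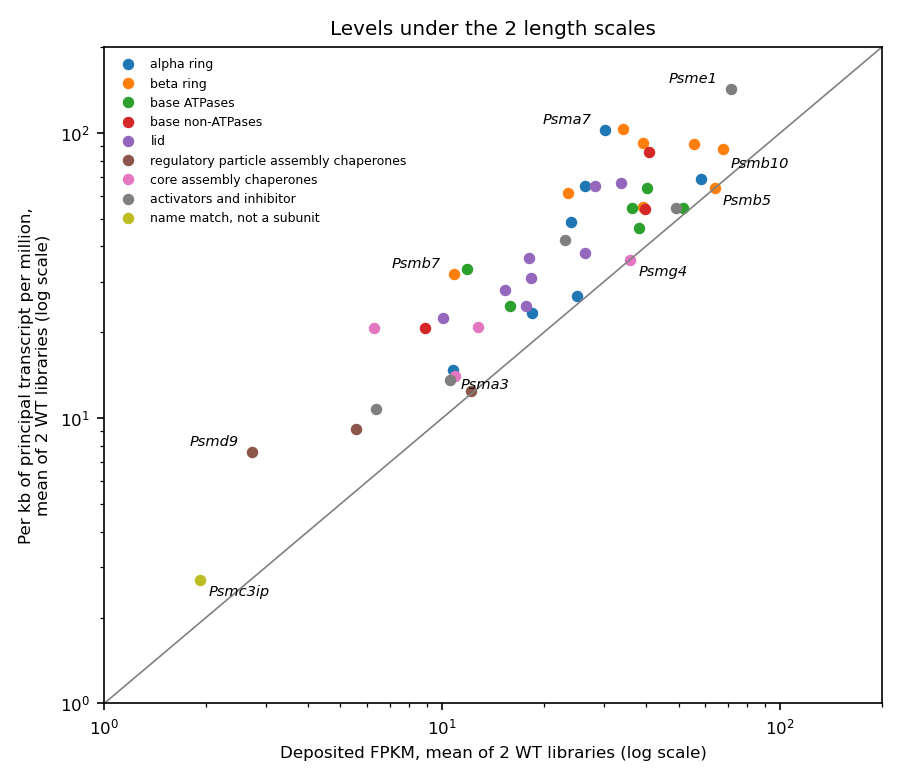
WT level of each tested proteasome gene as deposited FPKM (x axis) and on the same scale with the principal transcript length (y axis), both logarithmic and each a mean of 2 WT libraries, with colour for the role; the line marks equal values. All points lie on or above the line, since the exonic size is 1.0 to 3.36 times the transcript length.

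Subunits that stand in equal numbers in a core without immune subunits did not have equal transcript levels per length. The 14 constitutive core genes spanned 10.7 FPKM for Psma3 to 64.0 FPKM for Psmb5, a 5.96-fold range, and a 7.01-fold range per principal transcript, from 14.7 for Psma3 to 103 for Psmb3. Immune subunits can take the place of Psmb5, Psmb6 and Psmb7, whose products therefore need not equal the others in number here. Psma3 and Psmb3 are not among the replaced subunits. Part of the second range came from length, as the principal transcript has 2846 bases for Psma3 and 766 for Psmb3. Their counts in the 2 WT libraries were 675 and 801 against 1262 and 1525. Reads given to the copy Gm13835 are not part of the Psma3 value. With them, Psma3 had 1038 and 1215 WT counts. The 6 base ATPases spanned a 4.34-fold range in FPKM and 2.58-fold per principal transcript, from 24.8 for Psmc6 to 64.1 for Psmc3. Psmb10 stood above Psmb7, whose place it takes, with 67.5 against 10.8 FPKM and with 87.8 against 32.0 per principal transcript. Psmb8 had 83.7 and 94.0 FPKM in WT and 84.6 and 86.8 in Hnrnpf bKO cells, and Psmb5, whose place it takes, 64.0 and 63.9 FPKM in WT and 66.2 and 65.2 in Hnrnpf bKO cells. The transcripts of both forms were thus present together in each of the 4 libraries.

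**Figure D3:**
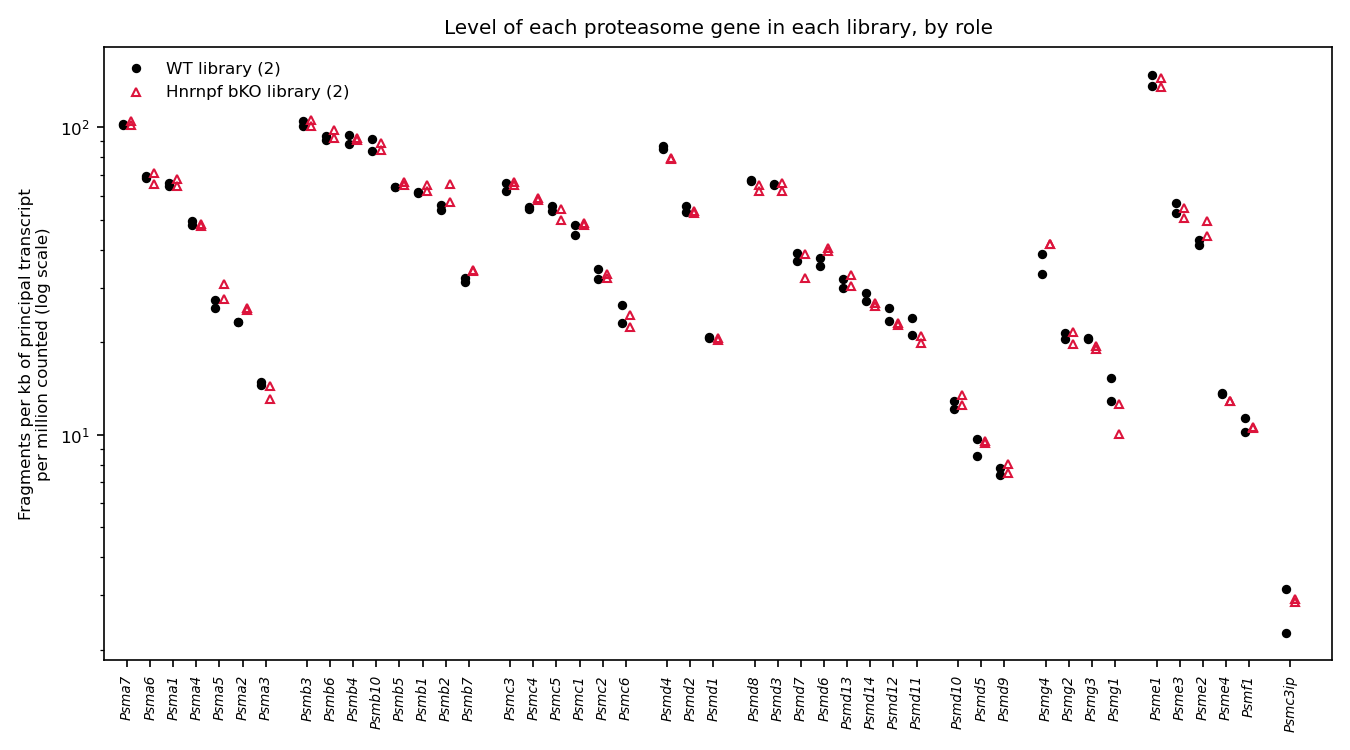
Level of each tested proteasome gene in each library, as fragments per kilobase of principal transcript scaled to the library total (logarithmic y axis), with genes grouped by role; filled circles are the 2 WT and open triangles the 2 Hnrnpf bKO libraries. The libraries of a gene lie close together next to the range between genes, which runs from Psmc3ip up to Psme1 at 142.

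Summed over all members, the level was 1210 and 1246 FPKM for WT against 1253 and 1219 FPKM for Hnrnpf bKO cells, and the groups overlapped. The share of all counts taken by the members was 0.302% and 0.309% for WT against 0.308% and 0.301% for Hnrnpf bKO cells. The alpha ring summed to 192 and 194 FPKM against 199 and 195, and the base ATPases to 194 and 194 FPKM against 197 and 195. The base genes that are no ATPases summed to 89.0 and 89.9 FPKM against 85.4 and 84.9. These sums follow the most abundant genes of each role and have no test of their own.

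Some of the other genes of the pathway were lower in Hnrnpf bKO cells. Of the 27 listed genes reported here, 0 were called higher and 3 were called lower in Hnrnpf bKO cells, and 18 of the 27 had a log2 fold change below 0 (median -0.04). At an unadjusted p under 0.05 there were 6 lower and 0 higher, beside 1314 lower and 1548 higher of the 14123 tested genes. The 3 called genes act on or around the proteasome. Whether the share differs from that of the subunits was not tested, and 2.83% of all genes were called lower.

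Ube3c, a ubiquitin ligase on the proteasome that lengthens chains on substrates, fell by 0.32 (SE 0.08, adjusted p = 0.030), from 57.7 and 60.8 CPM to 44.8 and 49.9 CPM. Ublcp1, a phosphatase of nuclear proteasomes, fell by 0.29 (SE 0.08, adjusted p = 0.038), from 87.7 and 90.8 CPM to 78.7 and 67.2 CPM, and its near-identical copy Gm12663 was given 6.28% of the reads counted for both. Zfand5, a zinc finger protein that stimulates the proteasome, fell by 0.28 (SE 0.07, adjusted p = 0.044), from 81.1 and 72.3 CPM to 62.3 and 64.3 CPM. In all 3 genes, both Hnrnpf bKO libraries were below both WT libraries. DESeq2 and limma on log2(FPKM + 0.1) each called 0 of the 27 genes, with 4 and 5 at an unadjusted p under 0.05. Of all 13570 genes, that limma fit called 29 higher and 16 lower, with 1221 and 1175 at that unadjusted p. Its 0 calls among the 27 genes therefore say little. With edgeR and 1 library left out, each of the 3 lost its call in some fits. Ube3c lost it without WT replicate 2 (0.082) or Hnrnpf bKO replicate 1 (0.20), and Ublcp1 without WT replicate 2 (0.070) or Hnrnpf bKO replicate 2 (0.25). Of the 4 such fits, the one without WT replicate 2 (0.0072) was the only one in which Zfand5 kept its call. The marker sums of B cell subsets and of myeloid cells given above move with the same groups, and their part in these 3 falls was not tested.

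**Figure D4:**
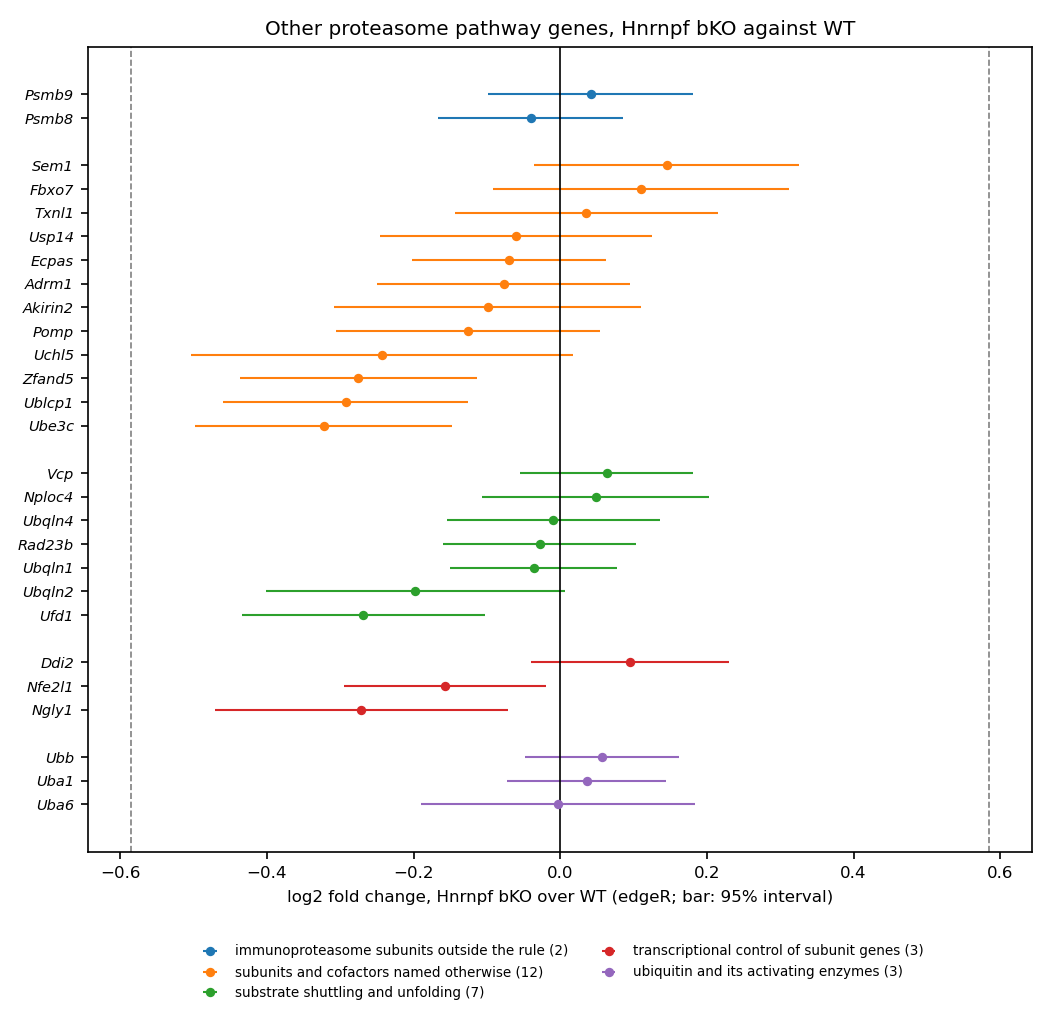
Log2 fold change of 27 other genes of the proteasome pathway, Hnrnpf bKO over WT (x axis, log2 units), in colour by list; points are edgeR estimates from 2 against 2 libraries, bars their 95% intervals, and dashed lines mark 1.5-fold. The 3 called genes, Ube3c, Ublcp1 and Zfand5, lie between -0.32 and -0.28.

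The regulators of subunit transcription did not pass the test with all 4 libraries. Nfe2l1 had 161 and 143 CPM in WT and 133 and 139 CPM in Hnrnpf bKO cells (-0.16 ± 0.06, adjusted p = 0.18), and it was called lower without WT replicate 2 (-0.24, adjusted p = 0.041) and in 0 of the other 3 fits with a library left out (0.21 to 0.68). Ngly1, the glycosidase that this factor needs for its activation, stood at -0.27 ± 0.09 (adjusted p = 0.10), and Ddi2, the protease that cleaves it, at 0.10 ± 0.06 (adjusted p = 0.43). Ufd1, a cofactor of the unfoldase Vcp, stood at -0.27 ± 0.08 and missed the threshold (adjusted p = 0.054), but was called with no filter (0.024), with at least 10 counts in each library (0.042) and without WT replicate 2 (0.028), whereas Vcp stood at 0.06 ± 0.05. The ubiquitin gene Ubb stood at 0.06 ± 0.05.

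The promoters of the members were read from RefSeq (GRCm38.p6), which gave a window of 250 bases before to 50 after the start for 39 of the 47 members. CCGGAAG, the core of many ETS family sites, was found on either strand in 14 of the 39 windows (35.9%), in 11.8% of the windows of other protein-coding genes and in 9.12% of all windows. Among the 14 is 1 window of Psmc3ip, which is not a subunit gene. The windows of other genes were not limited to genes expressed in FOB cells. The 14 were unevenly spread over the roles. The motif was in 9 of the 14 windows of regulatory particle subunits (3 of 5 base ATPases, 2 of 3 other base genes and 4 of 6 lid genes), and in 0 of 7 alpha ring and 0 of 6 beta ring windows. The sites of 6 members from 5 roles are shown on the strand that reads CCGGAAG, in capitals, with 10 bases on each side. They were picked by this match, so only their flanks can differ:
Psmc1, chr12:100110164-100110190, minus strand: atcgccaccgCCGGAAGtgcatccacc
Psmd2, chr16:20651616-20651642, minus strand: gtcctccagaCCGGAAGcgccctgcgg
Psmd6, chr14:14120974-14121000, minus strand: agagacgcgaCCGGAAGtcagactggc
Psmd12, chr11:107479501-107479527, minus strand: gtcactcgcaCCGGAAGtcgcccgctc
Psme4, chr11:30771712-30771738, plus strand: tggccccgccCCGGAAGtgacttgagg
Psmg1, chr16:95991013-95991039, minus strand: tcgcggcggaCCGGAAGctcttaggtt

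The other motifs searched on both strands were nearer to their background. GGGCGG, the GC box, was in 56.4% of the members' windows and in 46.3% of those of other protein-coding genes, and CCAAT was in 35.9% against 39.0%. TGACNNNGC, the core of the element that NFE2L1 is known to bind, was in 15.4% against 13.2% (Psmb5, Psmb6, Psmc6, Psmd9, Psmd12 and Psme4). AAGATGGC, read by YY1, was in 7.69% against 3.21%. A match is a description of these letters only, and windows that hold one motif can hold others at the same place.

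The splicing table lists 1556 events of 1173 genes that passed the limits set by the authors, with a type and no coordinates. Of the members, 2 are listed, Psma3 with an alternative 3′ and an alternative 5′ splice site and Psmd13 with a retained intron. Of the 44 members with a mean of at least 100 counts, 4.55% were listed, where 10.6% of the 9877 genes with that mean were. Among the other pathway genes only Usp14, a deubiquitinase, is listed, with a skipped exon. In their gene counts, given above, neither Psma3 nor Psmd13 passed the test (adjusted p = 0.61 and 0.80), and Gm13835 has a stretch identical to most of the Psma3 coding sequence. Exons of Psmd13 lie opposite those of Sirt3 over 342 bases.

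Since the event of Psmd13 was not placed, the introns of its principal transcript that another GENCODE M21 transcript keeps within an exon were read. There are 5, numbered 3, 4, 8, 11 and 12, of 88, 235, 83, 110 and 468 bases. HnRNP F is known to bind G-tracts, and runs of at least 3 G numbered 0, 4, 1, 2 and 5 in these introns. How common such runs are in introns at large was not tested. Introns 4, 8 and 11 hold G-tracts and are kept in transcripts that GENCODE labels as retained introns, and they are shown with the G-tracts in capitals:
Psmd13 intron 4, chr7:140886567-140886801, plus strand: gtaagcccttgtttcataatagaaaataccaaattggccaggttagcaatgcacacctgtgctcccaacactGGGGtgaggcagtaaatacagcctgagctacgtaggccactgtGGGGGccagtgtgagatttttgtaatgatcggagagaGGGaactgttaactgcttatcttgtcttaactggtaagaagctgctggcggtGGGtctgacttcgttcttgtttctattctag
Psmd13 intron 8, chr7:140890412-140890494, plus strand: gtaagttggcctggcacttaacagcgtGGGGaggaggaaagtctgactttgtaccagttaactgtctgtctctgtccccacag
Psmd13 intron 11, chr7:140897498-140897607, plus strand: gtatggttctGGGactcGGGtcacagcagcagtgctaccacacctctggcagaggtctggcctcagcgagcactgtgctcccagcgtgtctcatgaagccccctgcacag

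For Psma3, GENCODE M21 holds 1 pair of alternative 5′ sites, 24 bases apart, and 1 pair of alternative 3′ sites, 5 bases apart. The 24 bases between the 5′ sites hold no G-tract, and are given in capitals after the last 20 bases of the shorter exon:
Psma3 5′ sites, chr12:70978816-70978839, plus strand: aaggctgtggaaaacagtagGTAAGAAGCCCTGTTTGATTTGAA
Which of these annotated sites the listed events use was not settled, and a G-tract in an intron is a description of its letters, not a site of binding.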

How the data were processed

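RNA-seq of 2 WT and 2 Hnrnpf bKO FOB cell samples was used. Per the labels and the methods, the authors trimmed reads with Cutadapt 1.9.1, aligned them to GRCm38 with HISAT2 2.0.1 and counted them with HTSeq 0.6.1. The deposited counts are whole numbers per gene and library, not normalized. For the deposited FPKM the authors divided each count by the exonic size of its gene and by the library total, and all 221604 values were recomputed to within 0.005. The strand setting, the annotation release and the rule for reads that map to more than 1 place are not given in the sources used here. The splicing table also holds an FDR and an inclusion level difference from the authors' own comparison, which were not used.

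Counts were tested with edgeR 4.0.16 in R 4.3.3 (TMM, filterByExpr, quasi-likelihood test, Benjamini-Hochberg over 14123 genes), after tests on simulated data. CPM were scaled by TMM library sizes. The paper used DESeq2, which was run here in version 1.42.0 as an alternative. The others were RLE size factors, no filter, a minimum of 10 counts in each of the libraries, limma-trend (version 3.58.1) with a pseudocount of 0.1 or 1 on log2 FPKM for genes averaging at least 0.5 FPKM, a replicate block, and each library left out. Summing near-identical copies (blastn 2.17.0) and the transcript length scale were added after seeing the data. Replicates differed by more than counting error (chi-square per degree of freedom 4.30 in WT and 3.86 in Hnrnpf bKO cells), and the biological coefficient of variation was 5.90%. An exact two-sided permutation test of 2 against 2 libraries cannot go below p = 0.33 and was not used for single genes.

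The members and lists were chosen with earlier results of these data known. The rule named Hnrnpf, every member or pathway gene that edgeR called, the highest and lowest log2 fold change in each role, the catalytic and immune subunits and the activators, Psma7, Psma8, Psmd4, Psmd14 and Psmc3ip, members in the splicing table and members under the filter. Others are named as examples. Some genes of the pathway and marker lists are not reported here, Paaf1 was not analysed here, and protein sequences were not used here. Limits for 0 counts cover counting error alone, as PCR copies were not removed by molecular identifiers.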

Additional observations from a re-analysis of the deposited data

How the results depend on the processing

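No setting gave a member that passed the threshold: 0 members were called higher and 0 lower under all 11 alternatives to the fit, and with near-identical copies summed. The smallest adjusted p over members and settings was 0.14. The 3 pathway calls became 0 with DESeq2, 0 with limma on log2(FPKM + 0.1), 0 with limma on log2(FPKM + 1), and 1 to 3 with a library left out (1 without Hnrnpf bKO replicate 1 and 1 without Hnrnpf bKO replicate 2). The 3 without WT replicate 2 were Zfand5, Ufd1 and Nfe2l1, so that 1 or 2 of Ube3c, Ublcp1 and Zfand5 were called in each of these fits. There were 3 with RLE size factors and 4, with Ufd1 added, without a filter or with at least 10 counts in each library. Over the tested genes, deviations of same-numbered libraries had a correlation of -0.096. With 2 libraries a group both pairs give this same value, so it counts as 1 value and not as 2. It was below 0, and whether libraries were paired was not tested. With the replicate number as a block, 0 pathway genes and 0 members were called. The cause of these differences was not tested. The members' median log2 fold change ran from -0.014 to 0.028 with a library left out, and the ratio of their summed levels, 1.01, from 0.992 to 1.02.

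Of 500 alternative values of single members, 31 changed sign, among members whose own value was at most 0.096 in size. Psma4 stood at 0.0038 with its copy summed, and the other 30 came from leaving out a library. With each library left out, log2 fold changes ran from -0.035 to 0.013 for Psma4, -0.060 to 0.053 for Psma6, -0.069 to 0.048 for Psmb10, -0.016 to 0.042 for Psmb3, -0.024 to 0.062 for Psmb4, -0.070 to 0.048 for Psmc2, -0.0028 to 0.094 for Psmc3, -0.11 to 0.35 for Psmc3ip, -0.16 to 0.026 for Psmc6, -0.022 to 0.0029 for Psmd1, -0.011 to 0.096 for Psmd13, -0.056 to 0.0039 for Psmd2, -0.071 to 0.025 for Psmd3, -0.037 to 0.16 for Psmd5, -0.21 to 0.039 for Psmd7, -0.021 to 0.089 for Psmd9, -0.066 to 0.047 for Psme1, -0.089 to 0.0087 for Psme3, -0.085 to 0.050 for Psmf1 and -0.075 to 0.057 for Psmg2, and outside the rule from -0.12 to 0.038 for Psmb8 and -0.036 to 0.12 for Psmb9. Directions of members this close to 0 cannot be read at 2 libraries a group, and with 3 libraries the lone sample is assumed to vary like the others.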
